A study of Mus musculus with 30 samples.

Results

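The Hox clusters are 4 groups of neighbouring genes, Hoxa on chromosome 6, Hoxb on chromosome 11, Hoxc on chromosome 15 and Hoxd on chromosome 2 of the mouse, and their accessibility to a transposase was measured by ATAC-seq. The members are the 39 protein-coding genes of GENCODE vM21 whose symbols are Hoxa, Hoxb, Hoxc or Hoxd followed by a number, of 21951 protein-coding genes in that annotation. A Hox window is a peak window whose nearest protein-coding transcription start site (TSS), within 50 kb, belongs to one of them. By this rule 168 of the 305931 windows counted for the 24 h experiment and 212 of the 369846 windows counted for the 4 h experiment were Hox windows, and they touched 37 and 35 of the 39 genes.

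Hox genes encode homeodomain transcription factors that give cells their position along the body axis and along the limbs. In each cluster the order of the genes on the chromosome matches the order of their domains from head to tail, so that low-numbered genes mark anterior and high-numbered genes posterior or distal identity, and adult stromal cells are known to keep the Hox set of the place they came from. Polycomb proteins keep the unused part of a cluster closed, MLL (trithorax) proteins keep the used part open, and PBX, MEIS and PKNOX proteins of the TALE class bind DNA together with HOX proteins.

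The cells were mesenchymal stem cells (MSCs) grown from the bone marrow of male C57BL/6J mice, which the study's methods describe as harvested from several animals, and NIH 3T3, an embryonic fibroblast line, whose labels give the same strain and sex. MSCs were left untreated, given CK666, an inhibitor of the actin-branching Arp2/3 complex, or given cytochalasin D (CytoD), which blocks actin polymerization, for 24 h, and in a separate experiment MSCs and NIH 3T3 cells were left untreated or given CK666 for 4 h. Each of the 7 groups held 3 libraries. Labels do not say whether replicates were separate cultures, so p-values measure the spread between these libraries, which may be technical.

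Levels are given as TMM-normalized counts per 1000000 counts of the library (CPM), divided by window length in kb wherever windows are compared with each other. A window was called gained or lost where the log2 change passed 1 or −1 and the adjusted p lay below 0.01. The p-values came from the quasi-likelihood test of edgeR and were adjusted over all tested windows by the Benjamini-Hochberg method. The 24 h and 4 h counts were normalized separately, so their levels are not set against each other.

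Total counts ran from 14071301 to 22352180 per library at 24 h and from 14496058 to 34979833 at 4 h, the NIH 3T3 CK666 libraries being the shallowest of the 4 h set (14496058 to 23146416). Replicates correlated at 0.921 to 0.974 across windows (Pearson, log2 CPM), and no pair of replicates agreed within sampling noise. At the TSSs of stromal markers the MSC controls had open windows at Pdgfra (20.3 ± 0.949 CPM per kb, mean ± SD, n = 3), Pdgfrb (16.2 ± 1.52) and Cxcl12 (7.73 ± 0.396), but the Thy1 window was near 0 (0.048 ± 0.0831, against 4.98 ± 1.05 in NIH 3T3), Lepr was low (0.371 ± 0.0129), and Eng and Ly6a had no window at a TSS. Prrx1 and Col1a1 lay at or below 2.84 CPM per kb, the median of the 7 stromal markers with a TSS window in MSC controls. In NIH 3T3 controls that median was 4.84, with 2 of the 7 called higher than in MSCs and 1 lower. Of 8 blood cell markers only Csf1r (5.45 ± 0.683) and Adgre1 (1.71 ± 0.301) had a TSS window in MSC controls, of 4 endothelial markers 3 had one (0.968 to 4.07), and of 3 epithelial markers none had one.

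Sequences of 6 places on which the results below turn are shown first, 5′ to 3′, from RefSeq promoters or the genome (GRCm38.p6). Among 32851 mouse promoters of 250 bases before the start, 24 belonged to 22 of the Hox genes. The first set is from the Hoxa cluster, at the 3 promoters where the control cell types differed most, all on the minus strand. Capitals mark the only PBX-HOX match (TGATTNAT on either strand) in the promoter of Hoxa2, and CpG dinucleotides in those of Hoxa5 and Hoxa13.
Hoxa2 promoter, chr6:52164832-52165081: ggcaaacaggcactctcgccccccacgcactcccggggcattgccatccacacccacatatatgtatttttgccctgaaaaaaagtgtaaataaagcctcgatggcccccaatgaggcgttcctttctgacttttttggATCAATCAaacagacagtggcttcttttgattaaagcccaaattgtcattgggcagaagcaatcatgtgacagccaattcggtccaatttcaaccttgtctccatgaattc
Hoxa5 promoter, chr6:52204588-52204837: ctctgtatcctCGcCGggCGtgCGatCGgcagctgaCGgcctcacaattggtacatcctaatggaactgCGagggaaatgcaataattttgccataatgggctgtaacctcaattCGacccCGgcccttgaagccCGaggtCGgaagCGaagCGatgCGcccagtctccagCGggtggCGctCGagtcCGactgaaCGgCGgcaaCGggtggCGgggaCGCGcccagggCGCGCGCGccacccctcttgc
Hoxa13 promoter, chr6:52260881-52261130: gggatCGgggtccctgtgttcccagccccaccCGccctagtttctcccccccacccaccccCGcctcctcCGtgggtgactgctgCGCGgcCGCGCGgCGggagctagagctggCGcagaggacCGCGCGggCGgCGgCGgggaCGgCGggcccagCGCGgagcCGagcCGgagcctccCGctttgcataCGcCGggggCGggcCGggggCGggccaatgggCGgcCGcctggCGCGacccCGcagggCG

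The promoters of Hoxa5 and Hoxa13 are both rich in CpG, with 28 and 35 of these dinucleotides and a GC content of 63.6% and 80.0%, above the median of 6 CpG and 52.4% GC over all promoters. The Hoxa2 promoter has 6. The Hoxa5 and Hoxa13 promoters were open in opposite cell types, as described next. A PBX-HOX match was found in 2 of the 24 Hox promoters and in 2.82% of all promoters, a TAATTA homeobox core in 2 and 4.84%, an AP-1 match (TGANTCA) in 1 and 6.75%, a TEAD match (GGAATG) in 1 and 12.6%, and the CTCF core in 0 and 0.98%.

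The second set is from the Hoxc cluster, on the plus strand. They are a stretch of the window at the start of Hotair, a noncoding RNA of this cluster, where MSCs had almost no counts, the window upstream of Hoxc13 that gained with both treatments at 24 h, with its TAATTA homeobox core in capitals, and the Hoxc10 intron window, with its CTCF core match in capitals.
Hotair, chr15:102947382-102947581: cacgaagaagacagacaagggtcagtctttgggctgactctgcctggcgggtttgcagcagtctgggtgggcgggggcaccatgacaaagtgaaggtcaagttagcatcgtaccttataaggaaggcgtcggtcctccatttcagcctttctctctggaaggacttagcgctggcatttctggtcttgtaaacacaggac
Hoxc13 distal, chr15:102905260-102905459: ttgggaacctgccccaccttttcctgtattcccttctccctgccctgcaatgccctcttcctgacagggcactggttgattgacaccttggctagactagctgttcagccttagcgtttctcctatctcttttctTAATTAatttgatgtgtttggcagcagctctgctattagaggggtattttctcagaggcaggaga
Hoxc10 intron, chr15:102969089-102969208: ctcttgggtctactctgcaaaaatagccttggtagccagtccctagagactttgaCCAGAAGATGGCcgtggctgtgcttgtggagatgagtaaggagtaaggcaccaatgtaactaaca

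In the untreated cells of the 4 h experiment the cell types differed at opposite ends of the Hoxa and Hoxc clusters. MSCs were the more open at the posterior genes Hoxa9 to Hoxa13 and Hoxc9 to Hoxc13. NIH 3T3 cells were the more open at the anterior genes Hoxa2, Hoxa3 and Hoxa5, at Hoxc4, and at the TSS windows of Hoxd3, Hoxd8 and Hoxd9. Of the 212 Hox windows, 50 were called higher in NIH 3T3 (23.6%, against 16.2% of all 368794 windows tested) and 68 were called higher in MSCs (32.1%, against 18.3%). The median log2 difference, NIH 3T3 minus MSC, was −0.38 over Hox windows and 0.02 over all windows.

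The direction followed the position of the gene in its cluster. Of 55 windows at genes numbered up to 3, 25 were higher in NIH 3T3 and 8 in MSCs (median log2 difference 1.07), of 57 windows at genes 4 to 8, 17 and 7 (0.17), and of 100 windows at genes 9 to 13, 8 and 53 (−1.33). The contrast was sharpest in Hoxa, where all 20 called windows of genes numbered up to 3 were higher in NIH 3T3 (of 29, median 2.22) and all 23 called windows of genes 9 to 13 were higher in MSCs (of 31, median −2.28). Outside Hoxa the genes numbered up to 3 did not share this direction. Of 17 Hoxd3 windows, 5 were called higher in NIH 3T3 and 6 in MSCs. At Hoxd1 and at Hoxb1, 0 windows were called higher in NIH 3T3 and 1 in MSCs. Summed over the windows of Hoxa genes 9 to 13, MSC controls had 170.8 ± 9.63 CPM and NIH 3T3 controls 33.4 ± 2.31 CPM (mean ± SD, n = 3), while over genes numbered up to 3 the sums were 65.7 ± 3.64 and 140.7 ± 8.67 CPM. The regions within 2 Mb of each cluster that hold no Hox window had median log2 differences of 0.39 around Hoxa, −0.08 around Hoxb, −0.08 around Hoxc and −0.49 around Hoxd. Copy number was not measured, and its part in these differences was not tested.

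**Figure D1:**
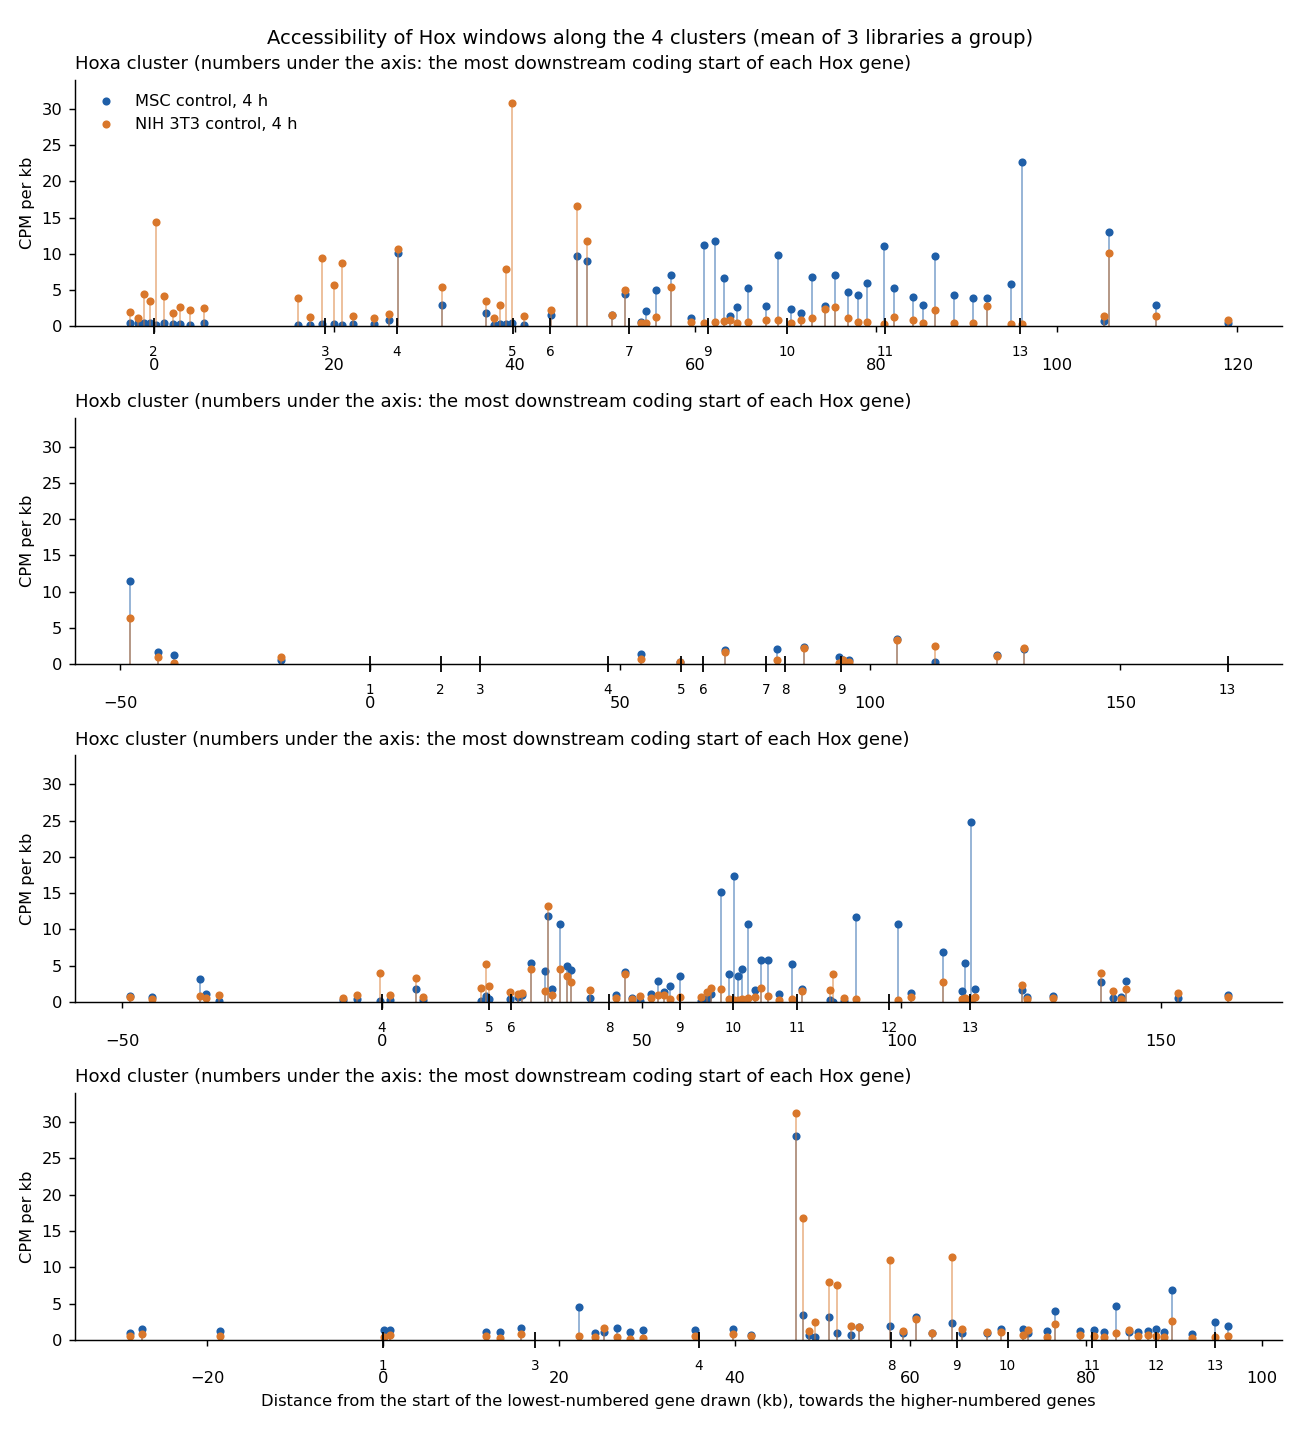
Mean accessibility (n = 3) of the Hox windows of the genes described here in the untreated MSC and NIH 3T3 libraries of the 4 h experiment, in CPM per kb, against the distance in kb along each of the 4 clusters, with ticks at the gene numbers. In Hoxa the called windows at low-numbered genes are higher in NIH 3T3 and those at genes 9 to 13 higher in MSCs. Other Hoxa windows, among them those at the starts of Hoxa4 and Hoxa7, are open in both. In Hoxb 15 of 16 windows stay under 4 CPM per kb in both.

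Hoxa2, a patterning gene of the hindbrain and branchial arches, had no window on its TSS, but the window 43 bases from it, which takes in most of the promoter printed above, had 0.151, 0 and 0.15 CPM in MSCs and 8.39, 6.81 and 6.87 CPM in NIH 3T3 (log2 difference 6.13 ± 0.54, adjusted p = 1.5e-28). At the window over the start of the shorter Hoxa3 transcript (chr6:52182580-52184393) the MSC libraries had 0.167, 0.185 and 0.457 CPM per kb and the NIH 3T3 libraries 10.2, 9.12 and 8.97 (5.12 ± 0.41, adjusted p = 3.5e-36). Both places were close to 0 in MSCs, with no overlap between the cell types. The windows on either side of the Hoxa3 window differed by 4.79 ± 0.15 and 5.28 ± 0.52 on the log2 scale. The Hoxa3 windows farther upstream, next to the start of the longer transcripts, were open in both cell types, with 8.98 ± 1.93 and 11.7 ± 0.846 CPM per kb at chr6:52212568-52213107 (log2 difference 0.38, adjusted p = 0.0396).

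In the middle of the cluster the pattern broke up from gene to gene. Hoxa4 did not pass the test, with 9.78, 10.2 and 10.6 CPM per kb in MSCs and 10.7, 9.58 and 11.8 in NIH 3T3 (log2 difference 0.07 ± 0.09, adjusted p = 0.726). Its neighbour Hoxa5, a regulator of lung and trunk skeleton development, had 0.432, 0.567 and 0.287 CPM per kb in MSCs and 35.6, 26.0 and 30.6 in NIH 3T3 (6.13 ± 0.25, adjusted p = 3.57e-38), the highest Hox TSS window of that line. Hoxa6 was low in both (log2 difference 0.51, adjusted p = 0.00708). The Hoxa7 TSS window was 7.10 ± 0.642 CPM per kb in MSCs and 5.48 ± 0.3 in NIH 3T3 (−0.37 ± 0.09, adjusted p = 0.00618), whereas the window next to it (chr6:52220012-52220978) was 4.96 ± 0.56 and 1.25 ± 0.329 (−2.00 ± 0.23).

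From Hoxa9 on every TSS window was higher in MSCs. Hoxa9, known for its role in blood stem cells and leukaemia, had 11.3, 12.5 and 9.83 CPM per kb in MSCs and 0.217, 0.567 and 0.481 in NIH 3T3 (log2 difference −4.69 ± 0.39, adjusted p = 2.6e-36). Hoxa10, known from the uterus and the upper leg, had 2.44 ± 0.151 and 0.511 ± 0.163 (−2.27, adjusted p = 1.64e-12). Hoxa11, which patterns the forearm and lower leg, had 11.19, 10.99 and 10.96 CPM per kb in MSCs against 0.2, 0.449 and 0.318 (−5.04 ± 0.27, adjusted p = 1.1e-34). At the end of the cluster Hoxa13, a gene of the hand, foot and urogenital tract, had 22.5, 21.6 and 23.7 CPM per kb in MSCs and 0.159, 0.384 and 0.352 in NIH 3T3 (−6.16 ± 0.25, adjusted p = 3.21e-34), the largest loss among Hox windows. This window lies over the CpG-rich promoter printed above.

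The Hoxc cluster was open at its posterior end in MSCs and weakly at its anterior end in NIH 3T3. Hoxc13, a hair and nail gene, had 25.9, 25.1 and 23.4 CPM per kb in MSCs and 0.3, 0.379 and 0.531 in NIH 3T3 (log2 difference −5.92 ± 0.20, adjusted p = 8.35e-44), and it was the highest Hox TSS window of the MSC controls. Hoxc10, a gene of the lower trunk and hind limb, had 20.02, 16.1 and 16.1 CPM per kb against 0, 0.486 and 0.268 (−5.97 ± 0.65, adjusted p = 1.75e-32). Hoxc9 and Hoxc11 differed in the same direction by −2.34 and −3.60. Windows near Hoxc12, whose TSS lay in none, fell with them, one 1.40 kb away by −5.25 ± 0.67 (6.76, 5.25 and 4.82 CPM against 0.241, 0.194 and 0) and one 5.92 kb away by −4.68 ± 0.27.

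Hoxc4 was the clearest window of the opposite kind, with 0.179, 0.176 and 0.267 CPM per kb in MSCs and 4.51, 3.67 and 3.96 in NIH 3T3 (4.25 ± 0.16, adjusted p = 5.74e-19). Hoxc5 and Hoxc6 were higher in NIH 3T3 by 2.41 and 1.67. Within the posterior part of the cluster, at genes 9 to 13, 6 windows were called higher in NIH 3T3. The one with the largest difference lay over the start of Hotair (chr15:102947208-102947757) and had 0.0378, 0 and 0 CPM in MSCs and 1.89, 2.55 and 1.92 CPM in NIH 3T3, which are 1 and 180 counts in all, a ratio of 171 with an exact 95% counting interval from 30.4 to 6805. The interval covers the counting noise of the pooled reads and not the spread between libraries. Since the reads carry no strand, the window counts accessibility of the place and not of a transcript.

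In Hoxd the central genes were the open ones in NIH 3T3. Hoxd8 had 1.6, 1.6 and 2.4 CPM per kb in MSCs and 11.7, 9.08 and 12.3 in NIH 3T3 (log2 difference 2.56 ± 0.23, adjusted p = 1.1e-27), and Hoxd9 2.4, 2.28 and 2.32 against 11.9, 10.6 and 11.9 (2.29 ± 0.06, adjusted p = 1.27e-25). The Hoxd3 TSS window differed less, with 3.18 ± 0.346 in MSCs and 7.96 ± 1.002 CPM per kb in NIH 3T3 (1.32 ± 0.14, adjusted p = 3.63e-09). Over all 17 windows of Hoxd3 the direction was mixed, with 5 called higher in NIH 3T3 and 6 in MSCs (median log2 difference 0.01). Hoxd9 thus ran against Hoxa9 and Hoxc9, genes of the same number. Hoxd13, the digit gene, was low in both cell types and lower in NIH 3T3, with 2.33, 1.83 and 3.33 against 0.451, 0.181 and 0.7 CPM per kb (−2.49 ± 0.50, adjusted p = 2.45e-08). Hoxd12 (−1.49, adjusted p = 0.00823) and Hoxd1 (−1.73, adjusted p = 0.00126) passed the test, with calls that held under 4 and 11 of 14 alternatives, but between CK666-treated libraries of the cell types, a comparison added after the data were seen, Hoxd1 differed by 0.07. Hoxd10 (−0.37, adjusted p = 0.119) and Hoxd11 (−1.21, adjusted p = 0.0388) did not pass.

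Levels were low in Hoxb. The windows within 2 Mb of it that are not Hox windows had medians of 1.43 CPM per kb in MSC controls and 1.32 in NIH 3T3 controls. Around the other clusters these medians ran from 1.04 to 1.51 in MSC controls and from 1.11 to 1.34 in NIH 3T3 controls. Of the Hoxb windows only that at Hoxb5 contained a TSS at 4 h, with 0.321 ± 0.2 CPM per kb in MSCs and 0.255 ± 0.233 in NIH 3T3 (log2 difference −0.36, adjusted p = 0.71). In both cell types 15 of the 16 Hoxb windows stayed under 4 CPM per kb. The exception lay 47.7 kb from Hoxb1. Of the 16 windows, 1 was called higher in NIH 3T3 and 3 in MSCs. No window on a TSS was counted at 4 h for Hoxa2, for the other Hoxb genes, or for Hoxc8, Hoxc12 and Hoxd4, so that 26 of the 39 genes had one. Of those 26 TSS windows, 19 were called between the cell types. Over all windows of any kind, 16.2% were called higher in NIH 3T3 and 18.3% higher in MSCs. The share among TSS windows of all genes was not counted.

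**Figure D2:**
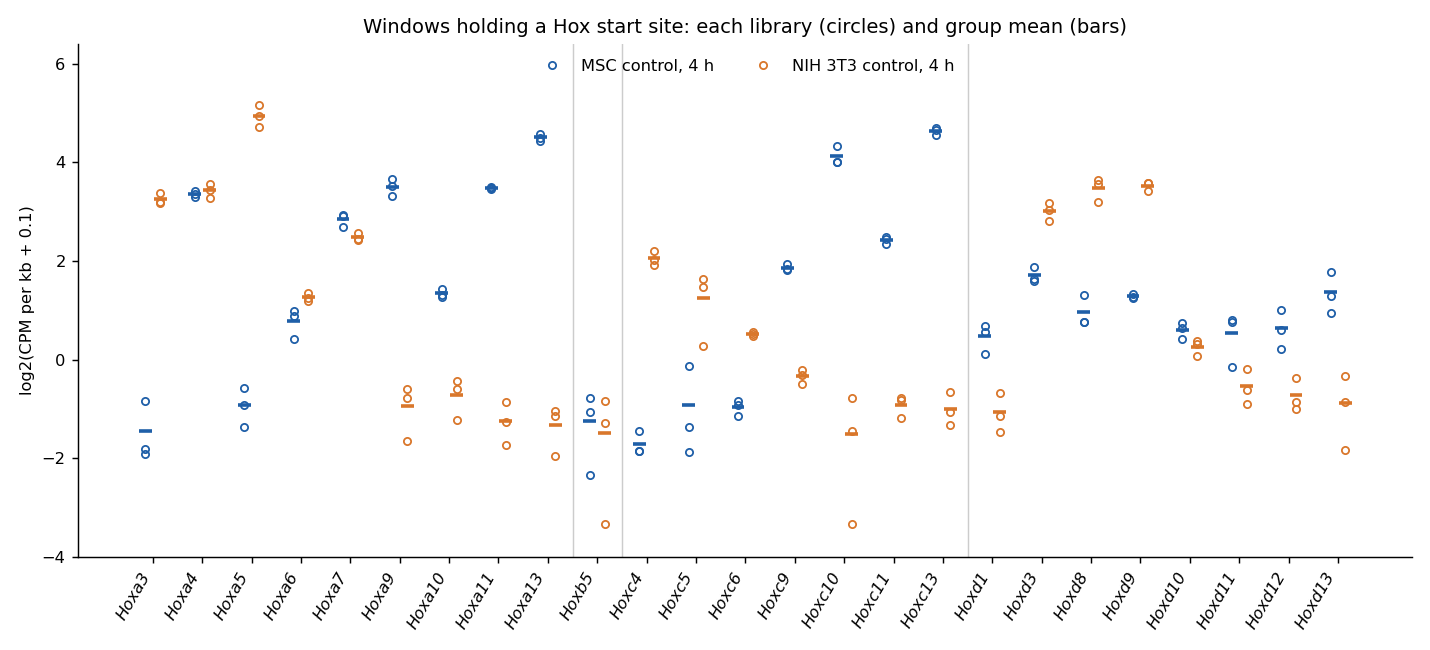
Accessibility of the window at the TSS of each gene described here in every untreated library of the 4 h experiment, as log2 of CPM per kb plus a small constant, by gene, with circles for libraries and bars for group means. MSC and NIH 3T3 libraries separate widely at Hoxa3, Hoxa5, Hoxa9, Hoxa11, Hoxa13, Hoxc10 and Hoxc13 and overlap at Hoxa4.

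Some windows were open in both cell types, and the ones named here were chosen after their values were seen. Over 5 CPM per kb there were 37 windows in MSCs, 24 in NIH 3T3 and 10 in both, none of which was called. The highest of them lay in a Hoxd3 intron over the noncoding Hoxd3os1 (chr2:74715718-74716266), with 28.1 ± 2.73 CPM per kb in MSCs and 31.3 ± 2.16 in NIH 3T3 (log2 difference 0.16, adjusted p = 0.243). A Hoxc6 intron window (11.8 and 13.3 CPM per kb) and a window 9.51 kb from Hoxa13 (13.1 and 10.1) did not pass either. Between the CK666-treated libraries of the cell types, 114 of the 118 Hox windows called between controls had the same sign, and 98 were called in the same direction. The same counts were not taken over all windows, so this agreement cannot be read as particular to Hox windows.

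Hox windows were longer and richer in GC than the rest, and held fewer AP-1 matches. Their median length was 623.5 bases against 589 for all windows at 4 h, and their median GC content 50.5% against 45.2%. In the central 500 bases, both strands searched, TGANTCA was found in 12.3% of Hox windows and 34.6% of all windows, GGAATG in 25.5% and 30.5%, TGATTNAT in 7.08% and 9.59%, TAATTA in 8.96% and 11.2%, and the CTCF core in 0.943% and 4.47%. The PBX-HOX match lay in 6 of the 50 Hox windows higher in NIH 3T3, where 11.9% of all windows higher there held it, and in 0 of the 68 higher in MSCs, against 9.97% of all windows. These are descriptions of letters in the windows, and matches are not binding sites.

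Most TSS windows of the TALE, Polycomb and MLL genes were not called between the cell types. Larger differences were found among upstream regulators and other patterning genes. Of all windows tested, 16.2% were called higher in NIH 3T3 and 18.3% higher in MSCs. The lists are short, and their counts were not tested against these shares. Of the 9 TALE cofactors, all with a TSS window, 1 (Pknox2, log2 difference −1.18) was called and the median difference was −0.26. Of 22 Polycomb genes 20 had one, with 2 called lower in NIH 3T3 (median −0.26), and of 9 MLL and demethylase genes 8 had one, with 0 called (median −0.29, range −0.79 to 0.35). Among 8 measured upstream regulators 3 were lower in NIH 3T3. These were Aldh1a2, the enzyme that makes retinoic acid (4.59 ± 0.647 against 0.169 ± 0.0851 CPM per kb, −4.71), Rarb, a retinoic acid receptor (30.8 ± 1.7 against 4.07 ± 0.447, −2.91), and Cdx2, a homeobox activator of posterior Hox genes (−1.43). Of 11 other patterning genes with a window, 1 was higher in NIH 3T3, the hind limb gene Tbx4 (0.154 ± 0.101 against 3.31 ± 0.18, 4.36), and 4 were higher in MSCs, among them the hind limb gene Pitx1 (3.16 ± 0.0922 against 0.338 ± 0.0896, −3.22).

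Treatment for 24 h changed few Hox windows in MSCs, and of the 25 Hox genes whose TSS window was tested only Hoxb13 was called, with each treatment. With CK666, 4 of 168 Hox windows gained (2.38%, against 1.88% of all windows) and 0 fell (against 1.06%), and by DESeq2 2 gained and 0 fell. At an unadjusted p under 0.05, 21 rose and 7 fell (16.7% of Hox windows in all, against 20.7% of all windows). With CytoD, 2 gained (1.19%, against 0.98%) and 2 fell (1.19%, against 1.4%), by DESeq2 2 and 0. The gained shares and the share lost with CytoD lay near those of all windows. The median log2 change over Hox windows was 0.12 with CK666 and 0.05 with CytoD, and over all windows 0.02 and 0.04. Both treatments were measured against the same 3 control libraries. These counts moved when single libraries were left out. With CK666, 1 window was called gained without CK666 replicate 1, control replicate 2 or control replicate 3, and 2 without CK666 replicate 2 or 3. With CytoD, leaving out control replicate 1 gave 5 gains and leaving out CytoD replicate 3 gave 1, and 1 was called lost without any 1 of the CytoD libraries or control replicate 1 and 0 without control replicate 2. The sum over all Hox windows was 592.6 ± 0.53 CPM in controls, 623 ± 25.6 with CK666 and 560 ± 13.3 with CytoD.

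A window 15.6 kb upstream of Hoxc13 (chr15:102904785-102905459, part of it printed above) gained with each treatment. Its control libraries had 1.05, 1.56 and 1.35 CPM, the CK666 libraries 3.48, 2.48 and 3.76 and the CytoD libraries 4.25, 4.65 and 3.30, so that every treated library lay above every control. The log2 change was 1.26 ± 0.23 with CK666 (adjusted p = 0.000242) and 1.58 ± 0.21 with CytoD (adjusted p = 3.57e-06), and both calls held under all 13 alternatives tried. The Hoxb13 TSS window, the only one counted on a Hoxb TSS at 24 h, had 0.35, 0.505 and 0.433 CPM in controls, 1.31, 0.891 and 1.85 with CK666 and 1.37, 1.51 and 2.61 with CytoD. It rose by 1.61 ± 0.31 (adjusted p = 0.00535, held under 6 of 13 alternatives) and by 2.07 ± 0.30 (adjusted p = 0.000152, 12 of 13). Hoxb13 is the most posterior Hoxb gene and is known from the prostate.

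The remaining gains with CK666 were at Hoxc. A window 28.6 kb from Hoxc13 (chr15:102891878-102892458) had 0.49, 0.643 and 0.337 CPM in controls and 1.46, 1.45 and 2.01 with CK666 (1.73 ± 0.26, adjusted p = 0.00588), and 0.411, 0.131 and 0.345 with CytoD (−0.71, adjusted p = 0.486). Tested directly, CK666 exceeded CytoD there by 2.44 ± 0.38 (adjusted p = 0.000178), a call held under all 13 alternatives. A Hoxc4 intron window (chr15:103024870-103025938) had 0.28, 0.184 and 0.289 CPM in controls, 1.26, 1.55 and 0.635 with CK666 (2.19 ± 0.38, adjusted p = 0.00331) and 0.549, 0.851 and 0.69 with CytoD (1.47, adjusted p = 0.101). The calls of these windows against control held under 6 and 9 of 13 alternatives.

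The 2 windows that fell with CytoD lay at Hoxa13 and Hoxc13. A window 14.5 kb from Hoxa13 had 3.08, 3.22 and 2.36 CPM in controls and 1.10, 1.90 and 1.08 with CytoD (−1.09 ± 0.28, adjusted p = 0.00771), and a Hoxc13 intron window (chr15:102926114-102926718) had 2.03, 2.62 and 2.02 against 0.686, 0.785 and 1.33 (−1.21 ± 0.29, adjusted p = 0.00729), with no overlap at either. These calls held under 7 and 6 of 13 alternatives. Among the windows that passed the adjusted p but not the fold limit were, named after their values were seen, the interval between Hoxa11 and Hoxa13 (29.4, 27.4 and 30.002 against 19.5, 20.3 and 17.1, −0.61, adjusted p = 7.94e-07), a Hoxa10 intron (−0.86, adjusted p = 6.04e-05) and the Hoxc10 intron with the CTCF core match (7.21, 7.81 and 6.74 against 4.11, 3.60 and 3.65, −0.94 ± 0.08, adjusted p = 7.27e-05). The Hoxa sum was 290.4 ± 5.51 CPM in controls, 299 ± 15.5 with CK666 and 244.5 ± 4.96 with CytoD, whereas the Hoxd sum was 72.0 ± 0.82 in controls and 85.1 ± 2.26 with CytoD. With CytoD the windows within 2 Mb of Hoxa that are not Hox windows had a median log2 change of −0.12, against 0.06 for chromosome 6 and 0.04 for all windows. With CytoD the change ran with the level of a window over the whole genome, the median log2 change being 0.34 for windows under 1 CPM per kb and −0.13 for windows over 3, against 0.53 and −0.17 for Hox windows, and the part of this trend in the Hox changes was not tested.

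Set against each other, CK666 exceeded CytoD at 2 of 168 Hox windows (against 2.14% of all windows) and CytoD exceeded CK666 at 0 (against 1.14%), and DESeq2 gave the same counts. At an unadjusted p under 0.05, 25 were higher and 8 lower with CK666 (19.6%, against 23.7% of all windows). Without CK666 replicate 3, 1 window exceeded. The window not named so far lay in a Hoxa10 intron (chr6:52238901-52239449), with 1.87, 1.92 and 2.49 CPM under CK666 and 0.686, 0.916 and 0.887 under CytoD (1.32 ± 0.17, adjusted p = 0.00401). Controls there had 2.10, 1.61 and 1.59 CPM.

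**Figure D3:**
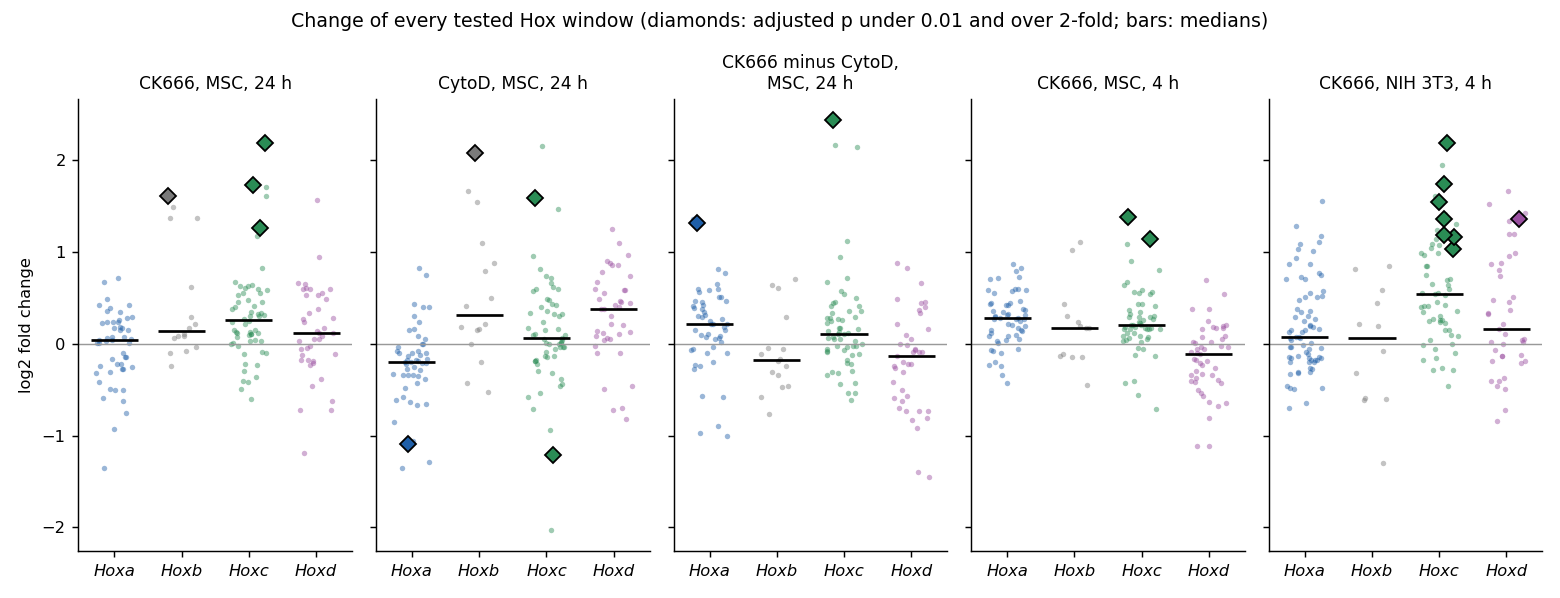
Log2 change of each tested Hox window by cluster, in MSCs with CK666, with CytoD and between the treatments at 24 h, and with CK666 at 4 h in MSCs and in NIH 3T3. Diamonds mark called windows, which number 4, 4, 2, 2 and 8 in that order, and black bars are medians, all of which lie within the fold limit of 1.

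At 4 h few Hox windows of MSCs changed with CK666. Of 176 tested, 2 gained (1.14%, against 0.59% of all windows) and 0 fell (against 0.427%), and by DESeq2 1 gained and 0 fell. At an unadjusted p under 0.05, 37 rose and 6 fell (24.4%, against 19.1% of all windows). A window 3.77 kb from Hoxc10 (chr15:102962277-102963031) had 1.36, 1.27 and 1.09 CPM in controls and 3.27, 2.86 and 2.14 with CK666 (1.14 ± 0.20, adjusted p = 0.000282), a call held under all 13 alternatives. A window 15.7 kb upstream of Hoxc13 (chr15:102904848-102905408), at the same place as the one that gained at 24 h, had 0.415, 0.447 and 0.527 CPM in controls and 1.10, 0.754 and 1.81 with CK666 (1.38 ± 0.35, adjusted p = 0.00668, held under 6 of 12). The median log2 change was 0.17 over Hox windows and 0.00 over all windows. Without CK666 replicate 1 or 3, or without any 1 of the controls, 1 window gained, and without control replicate 3, 1 fell. Windows at Hoxa9, Hoxa10 and Hoxa11, named after their values were seen, passed the adjusted p below the fold limit, by 0.58, 0.79 and 0.86.

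In NIH 3T3 cells the Hox windows that gained with CK666 lay mostly in Hoxc. Of 187 tested Hox windows, 8 gained (4.28%, against 1.87% of all windows) and 0 fell (against 1.67%), and by DESeq2 4 gained and 0 fell. At an unadjusted p under 0.05, 44 rose and 7 fell (27.3%, against 26.6% of all windows). The median log2 change was 0.25 over Hox windows and 0.04 over all windows. Of the 8, 6 lay at genes 9 to 13, which held 84 of the 187 tested windows, and 7 in Hoxc, which held 61. Between controls, 4 of the 8 had been called higher in MSCs and 1 lower, against 68 and 50 of all 212 Hox windows, tested here or not. The same NIH 3T3 control libraries enter both comparisons, so these counts are not independent of the gains. Without control replicate 1 the gains numbered 3, without CK666 replicate 1 or 3 or control replicate 2 or 3 they numbered 4, and without control replicate 2 there was 1 loss. The Hoxc13 intron window (chr15:102926103-102926719) had 1.53, 1.81 and 1.67 CPM in controls and 3.48, 3.96 and 3.65 with CK666 (1.16 ± 0.09, adjusted p = 4.53e-05, held under 13 of 13 alternatives). A window 28.7 kb from Hoxc13 had 0.201, 0.323 and 0.214 against 0.628, 1.84 and 0.893 (2.19 ± 0.46, adjusted p = 0.000655), and one 7.16 kb from Hoxc4 had 0.402, 0.614 and 0.285 against 1.54, 1.55 and 1.27 (1.74 ± 0.29, adjusted p = 0.000716).

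Weaker gains were called 3.58 kb from Hoxc8 (1.54, adjusted p = 0.000315), 1.29 kb from Hoxc9 (1.36, adjusted p = 0.00556), 2.49 kb from Hoxd11 (1.35, adjusted p = 0.0078), 39.5 kb from Hoxc13 (1.03, adjusted p = 0.00165) and at the Hoxc11 TSS. The last had 0.803, 1.10 and 1.14 CPM in controls and 3.31, 1.14 and 2.53 with CK666 (1.19 ± 0.47, adjusted p = 0.00297, held under 7 of 13), its replicate 2 lying just above the highest control. The 2 windows that passed the adjusted p downward, below the fold limit and named after their values were seen, were the Hoxa3 TSS window, from 18.6, 16.5 and 16.3 to 9.13, 12.8 and 10.2 CPM (−0.64 ± 0.15, adjusted p = 0.000387) and the Hoxa2 window, from 8.39, 6.81 and 6.87 to 3.37, 4.70 and 5.14 (−0.70 ± 0.21, adjusted p = 0.00172). Over the whole genome the change in these libraries ran with the level too, with a median of 0.33 for windows under 1 CPM per kb and −0.19 for windows over 3, against 0.85 and −0.09 for Hox windows. Of the 41 Hox windows over 3 CPM per kb, 16 rose in value. The treated libraries were the shallower ones. The part of level and depth in the Hox gains was not tested.

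**Figure D4:**
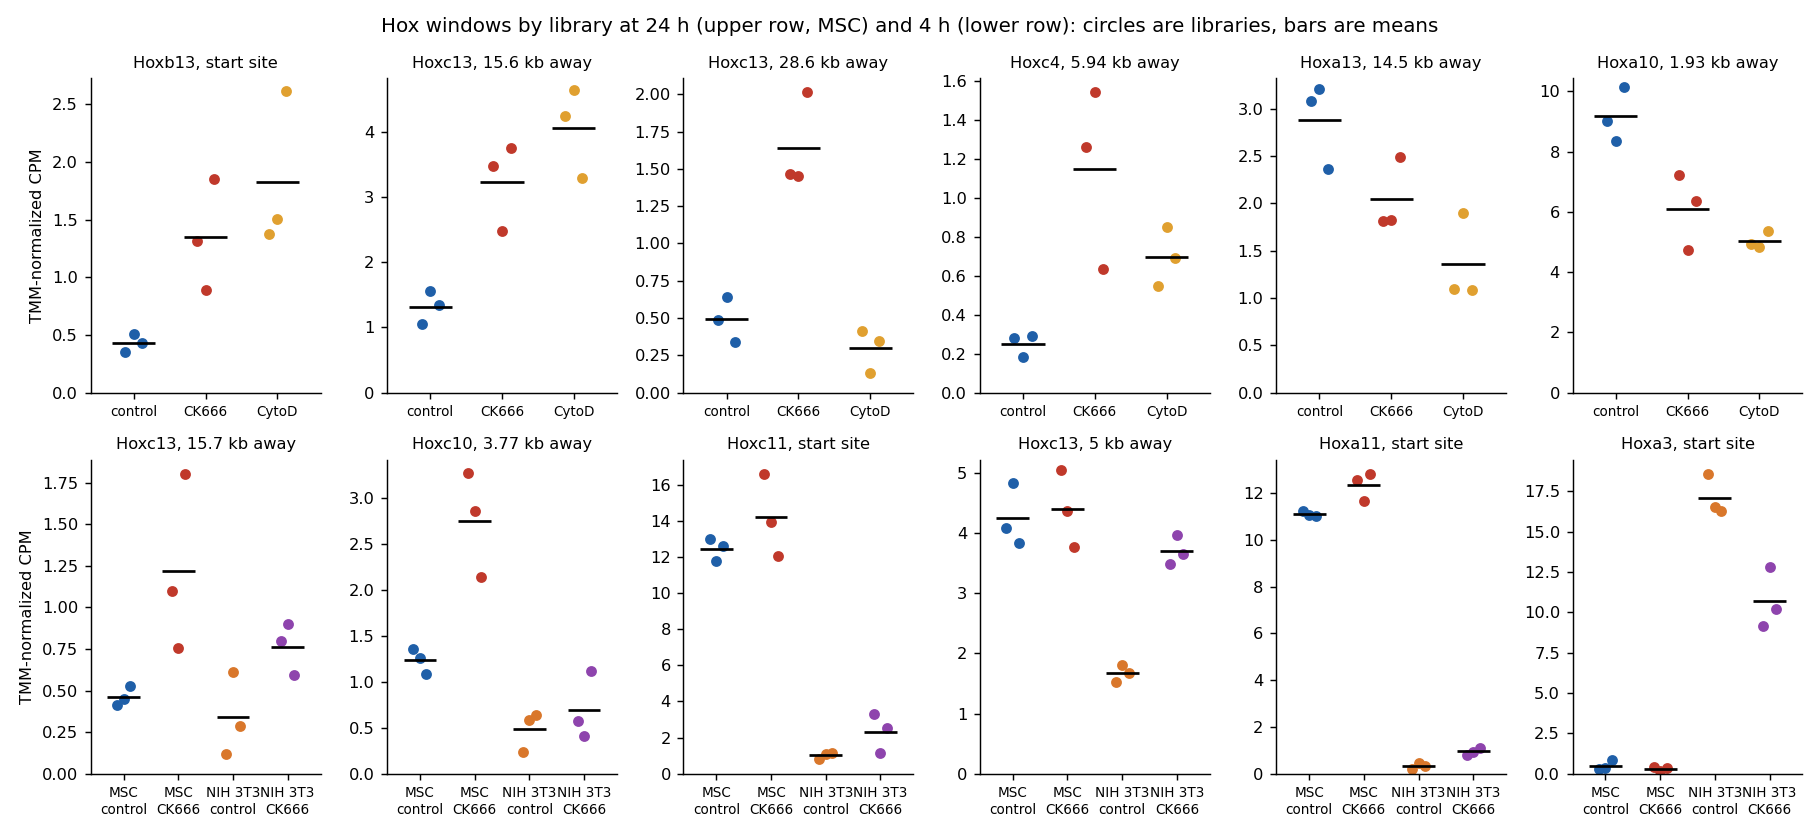
TMM-normalized CPM in every library (circles) and group means (bars) at 12 Hox windows, those of MSCs at 24 h in the upper row and of both cell types at 4 h in the lower, titled by gene and distance to its TSS. The window 15.6 kb from Hoxc13 separates both treatments from control at 24 h, and the Hoxa10 intron and Hoxa3 start site windows are ones that passed the adjusted p but not the fold limit.

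The difference between the cell types in the response to CK666 was tested as an interaction. It was called at 2 of 212 Hox windows in the direction of NIH 3T3 (0.943%, against 0.498% of all windows) and at 0 in the other (against 0.905%), where DESeq2 called 1. An unadjusted p under 0.05 was reached by 32 in the first direction and 13 in the other (21.2%, against 17.8% of all windows). The 2 calls became 1 without MSC CK666 replicate 1, MSC control replicate 2 or NIH 3T3 control replicate 1, and 0 without MSC CK666 replicate 2 or 3, MSC control replicate 1, NIH 3T3 CK666 replicate 3 or NIH 3T3 control replicate 3. Without NIH 3T3 CK666 replicate 3, 1 window was called in the other direction. At the Hoxc13 intron window the MSC libraries went from 4.08, 4.84 and 3.84 to 5.05, 4.37 and 3.78 CPM (0.04), and the interaction was 1.10 ± 0.18 (adjusted p = 0.00632). At the Hoxa11 TSS window NIH 3T3 went from 0.201, 0.452 and 0.32 to 0.799, 0.94 and 1.12 CPM and MSCs from 11.3, 11.1 and 11.02 to 12.5, 11.7 and 12.8, the interaction being 1.38 ± 0.30 (adjusted p = 0.00961). These calls held under 6 and 4 of 18 alternatives. For the window upstream of Hoxc13 that gained in MSCs at 4 h, the change in NIH 3T3 was 1.14 (adjusted p = 0.136) and the interaction −0.28 (adjusted p = 0.869).

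The TSS windows of the genes known to act on the clusters mostly did not pass with treatment. Nor did most windows of any kind, with at most 2.14% of all windows gained and 1.67% lost in any comparison with treatment. The 9 TALE cofactors had 0 called in each of the 24 h and 4 h comparisons, with changes between −0.39 and 0.24 for CK666 at 24 h and between −0.25 and 0.21 in NIH 3T3, as had the Polycomb genes. Kdm6b, the demethylase that removes Polycomb's mark, was 1.19 higher with CK666 than with CytoD (adjusted p = 1.34e-05), with changes of 0.88 and −0.31 against control, and Cdx2 rose by 1.54 in NIH 3T3 with CK666 (adjusted p = 0.00868), with an interaction of 1.85. No TSS window of the other patterning genes or of the stromal markers was called in any of the 6 comparisons with treatment. Of the cell type markers, Adgre1, a macrophage gene, rose by 1.63 with CytoD (adjusted p = 0.000246) and Csf1r had a change of −0.58 (adjusted p = 0.269). The TSS windows of these genes ran from 1.37 to 4.26 CPM per kb in controls, 2.89 to 4.34 with CytoD and 2.04 to 2.25 with CK666, and Ptprc, Spi1 and Itgam had none. Their part in the Hox changes was not tested.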

How the data were processed

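ATAC-seq followed the Omni-ATAC protocol. The authors aligned paired-end reads with bowtie2 in PEPATAC, called peaks with MACS2 and, for each condition, joined the peaks of its replicates into consensus windows, and the deposited values are raw read counts per window and library. Versions of these tools were not given in the sources used here. The build is mm10 in the submitters' processing notes. In all, 21 libraries were used, and 9 columns of siRNA libraries were not.

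Counts were filtered with filterByExpr, normalized by TMM and tested with edgeR 4.0.16 (quasi-likelihood) in R 4.3.3, with Benjamini-Hochberg adjustment over all windows. The code was tested on simulated data. Levels are mean ± SD (n = 3). The SE, given as ± after a log2 difference or change, is that of the difference of log2 CPM with a prior count of 2. Windows were assigned with GENCODE vM21, and motifs were searched in the central 500 bases. DESeq2 1.42.0, other scalings, filters, distances and left-out libraries were tried. Given in full are windows on a Hox TSS and up to 6 called gains and 6 called losses per comparison. The members and gene lists were chosen with earlier results of these data known. The windows of 1 gene are not reported singly here.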

Additional observations from a re-analysis of the deposited data

Results flagged for a closer look

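At 2 Hox windows the change with CK666 at 4 h differed between NIH 3T3 cells and MSCs by the test of the interaction (edgeR's quasi-likelihood test, Benjamini-Hochberg adjustment). At the Hoxc13 intron window the interaction was 1.10 on the log2 scale (adjusted p = 0.00632), with changes of 1.16 in NIH 3T3 and 0.04 in MSCs. At the Hoxa11 TSS window it was 1.38 (adjusted p = 0.00961), with changes of 1.55 (adjusted p = 0.0168) and 0.15. The calls held under 6 and 4 of 18 alternatives, and no cause was tested.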

How the results depend on the processing

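The counts between untreated NIH 3T3 and MSCs moved less than the treatment counts. Between the cell types the 50 windows higher in NIH 3T3 became 25 when a window had to be nearest to a Hox TSS among genes of every type, and otherwise both counts stayed within 1.5 times. Leaving out libraries gave 44 to 49 higher and 63 to 66 lower. With the CK666 libraries of each cell type in place of the controls, a comparison added after the data were seen, Hoxb5 was at 2.10 (−0.36 between controls) and Hoxd1 at 0.070 (−1.73). Of the 24 calls named there, 21 held under all 14 alternatives, the others being Hoxd12 (4 of 14), Hoxd1 (11) and Hoxd13 (13).

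With CK666 at 24 h the 4 gains became 2 by DESeq2 and 1 within 5 kb of a TSS, and the 0 losses became 1 with no fold limit. With CytoD the 2 gains became 1 within 5 kb, and the 2 losses became 0 by DESeq2, by total counts and within 5 kb, 1 with only the 6 libraries compared and with TSSs of every type, and 6 with no fold limit. Between the treatments the 2 gains became 7 with no fold limit and 1 within 5 kb. In MSCs at 4 h the 2 gains became 1 by DESeq2, with all 12 libraries in the fit and within 5 kb, and 8 with no fold limit. In NIH 3T3 the 8 gains became 4 by DESeq2, 13 with all 12 libraries and 5 within 5 kb, and the 0 losses became 2 with no fold limit. The 2 interaction gains became 0 with RLE factors, with no filter and with a GC offset, 1 with the replicate block and 5 by total counts, and the 0 losses became 1 by DESeq2 and with RLE factors. The causes were not tested.

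Leaving out libraries gave 1 to 3 gains and 0 losses with CK666 at 24 h, 1 to 5 and 0 to 2 with CytoD, 1 to 2 and 0 between the treatments, 1 to 2 and 0 to 1 in MSCs at 4 h, 3 to 10 and 0 to 1 in NIH 3T3, and 0 to 3 and 0 to 1 for the interaction. Libraries with the same replicate number did not deviate together (correlations of −0.0715 to 0.0274). No shared effect was thus seen, but whether such libraries were prepared together is not known from the labels. The replicate block gave 48 gains and 67 losses between the cell types, 4 and 0 with CK666 at 24 h, 2 and 2 with CytoD, 2 and 0 between the treatments, 2 and 0 in MSCs at 4 h and 9 and 0 in NIH 3T3.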
